A study of Rattus norvegicus with 19 samples.

Results

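A set of 6 genes used to recognise astrocytes, or by which astrocytes clear glutamate, were followed in brain tissue of 19 female Wistar rats whose fathers belonged to 1 of 4 groups. All 6 were chosen by Ensembl gene ID from the 32883 IDs of the count table: Gfap (ENSRNOG00000002919), Aqp4 (ENSRNOG00000016043), S100b (ENSRNOG00000001295), Slc1a2 (ENSRNOG00000005479), Slc1a3 (ENSRNOG00000016163) and Glul (ENSRNOG00000049560). Each passed the filter on low counts that left 15372 IDs. The symbols are those with which the set of IDs was drawn up. The reference table used here pairs no Ensembl ID with a symbol, so it contradicts none of them, and other astrocyte genes, genes of the glutamate-glutamine cycle and markers of other cell types could not be looked up.

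The fathers were controls (5 daughters), had a high-fat diet (HFD, 4 daughters), early life stress (ELS, 5 daughters; the series text describes it as maternal separation) or both exposures (ELS-HFD, 5 daughters). The daughters themselves were on chow and were tested on an elevated plus maze at postnatal day 57 ± 1. The tissue is labelled brain, as whole lysate, and the series text names the amygdala and male rats, where each sample label says female. The labels name no father, litter or batch, and some daughters may be sisters, so a p-value reflects only how these samples vary. In such bulk tissue fewer astrocytes and less RNA per astrocyte cannot be told apart.

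Astrocytes are the glial cells whose processes wrap synapses and blood vessels. Glutamate released by neurons is carried into them by membrane transporters that use the sodium gradient, is turned into glutamine by glutamine synthetase, and is handed back to neurons as glutamine. In the amygdala, as in other forebrain regions, this uptake ends glutamate signals and keeps the transmitter from spilling to neighbouring synapses. Slc1a2 encodes GLT-1 (EAAT2), the main forebrain glutamate transporter; Slc1a3 encodes GLAST (EAAT1), its close relative; and Glul encodes glutamine synthetase. Gfap encodes the intermediate filament protein of astrocytes, Aqp4 the water channel of their endfeet, and S100b a calcium-binding protein found in astrocytes and also in some oligodendrocyte lineage cells.

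Library totals ran from 7034837 to 20266594 counts. On the first principal component of all tested IDs (32.9% of the variance) 3 libraries lay far out. HFD replicate 1 scored 113.69, replicates 2 and 3 of ELS-HFD scored 49.23 and 47.82, and the rest scored -29.02 to 10.59. The 10 most abundant IDs took 25.8%, 14.8% and 16.7% of their counts, against 9.0% to 13.9% in the other 16 libraries. TMM library scaling was close to neutral in 18 libraries (factors of 0.984 to 1.07) and was 0.772 in HFD replicate 1. Values below are therefore given with and without these 3 libraries wherever they bear on a result. CPM is a gene's count scaled to the column sum of its library, and log2 CPM uses library sizes scaled by TMM.

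The 6 genes did not form a block. Slc1a2 varied by far more than the others: its highest CPM was 8.90 times its lowest, against 3.0 times for Gfap, 2.41 for Aqp4, 1.63 for S100b, 1.62 for Slc1a3 and 1.52 for Glul. With TMM scaling these ratios were 7.03 for Slc1a2, 2.80 for Gfap, 2.15 for S100b, 1.82 for Aqp4, 1.42 for Glul and 1.33 for Slc1a3. The SD of Slc1a2 across the 19 libraries was 0.87 on the log2 scale, larger than that of 93.4% of tested IDs. Slc1a3 and Glul had the smallest SDs of the set, 0.12 and 0.16, above those of 3.95% and 10.02% of tested IDs. Without the 3 libraries that stood apart the SD of Slc1a2 was 0.52, above that of 83.9% of IDs, and those of Slc1a3 and Glul were 0.11 and 0.15, above those of 6.81% and 20.1%. Counts of the 6 genes ran from 405 to 25406 per library, so none was near the limit of detection.

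**Figure D1:**
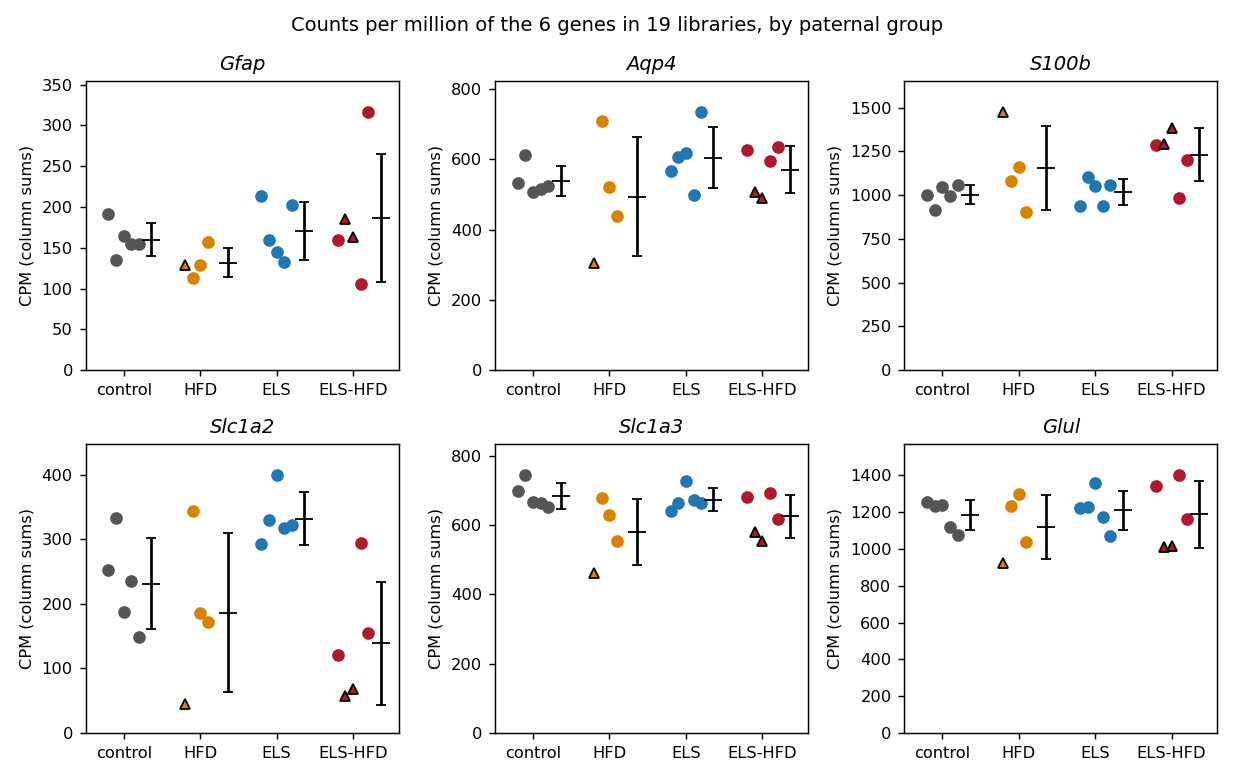
CPM (vertical axes, from 0) of the 6 genes in each of the 19 libraries, by paternal group (horizontal axes); points are libraries, black-edged triangles are HFD replicate 1 and ELS-HFD replicates 2 and 3, and bars are mean ± SD. Slc1a2 spans 45.0 to 400 CPM while Slc1a3 stays between 460 and 746.

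The stretches upstream of the 3 genes of uptake and glutamine synthesis are shown to set their sequences beside their levels, with the CG dinucleotides, the sites of DNA methylation, marked. Each is the 250 bases before the gene's annotated start (RefSeq, GRCr8, a later build than the Rnor_6.0 named for the counts), 5′ to 3′ on the gene's strand, with CG in capitals; CG reads the same on both strands.
Slc1a2, chr3:109459859-109460108, plus strand: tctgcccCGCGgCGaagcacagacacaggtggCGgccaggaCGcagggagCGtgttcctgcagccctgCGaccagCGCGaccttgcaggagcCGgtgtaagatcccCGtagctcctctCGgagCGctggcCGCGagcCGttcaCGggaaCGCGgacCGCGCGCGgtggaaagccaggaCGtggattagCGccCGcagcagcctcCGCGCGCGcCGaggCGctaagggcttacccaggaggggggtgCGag
Slc1a3, chr2:59557809-59558058, minus strand: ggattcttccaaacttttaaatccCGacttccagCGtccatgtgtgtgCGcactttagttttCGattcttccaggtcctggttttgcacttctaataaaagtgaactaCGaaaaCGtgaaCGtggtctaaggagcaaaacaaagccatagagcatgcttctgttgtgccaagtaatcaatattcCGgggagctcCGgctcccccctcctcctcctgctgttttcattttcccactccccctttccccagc
Glul, chr13:68519250-68519499, plus strand: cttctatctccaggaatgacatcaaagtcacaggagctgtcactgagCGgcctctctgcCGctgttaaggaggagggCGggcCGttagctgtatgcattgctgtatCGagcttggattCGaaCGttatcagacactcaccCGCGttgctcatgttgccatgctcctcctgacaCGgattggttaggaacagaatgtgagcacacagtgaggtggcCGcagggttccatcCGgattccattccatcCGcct
The Slc1a2 window held 33 CG and 71.2% G and C, the Slc1a3 window 9 CG and 48.0%, and the Glul window 13 CG and 54.4%. Over 33469 such windows of the rat genome 92.2% held a CG, the median was 5 CG, and 96.4% had fewer than the Slc1a2 window. The windows of Gfap, Aqp4 and S100b, not printed, held 1, 4 and 5 CG. Those of Aqp4 and S100b do not lie at the annotated gene start but at the nearest start listed in the reference. Gfap, whose window does lie at the gene start, had the fewest CG and was second in spread between libraries. A relation of CG content to spread was not tested. No methylation was measured in these files, and the counts say nothing of what these letters do. All 6 symbols matched the RefSeq table.

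Among the marker genes, Gfap was at 192, 135, 164, 155 and 155 CPM in control replicates 1 to 5 and at 129, 113, 129 and 157 CPM in the HFD replicates. It was at 214, 159, 145, 132 and 202 CPM in the ELS replicates and at 160, 186, 164, 105 and 316 CPM in the ELS-HFD replicates. The ELS-HFD group thus held both the lowest and the highest of the 19 values, and all pairs of groups overlapped. Mean CPM was 160 ± 20.6 (SD, n = 5) in control, 132 ± 18.1 (SD, n = 4) in HFD, 170 ± 35.8 (SD, n = 5) in ELS and 186 ± 78.5 (SD, n = 5) in ELS-HFD. Ordered by mean log2 CPM the groups ran ELS-HFD (7.44), ELS (7.34), control (7.30) and HFD (7.13), and no neighbours in that order differed beyond their spread (exact permutation p = 0.746, 0.825 and 0.262). The smallest p that these group sizes allow is 0.00794.

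Aqp4, the water channel, averaged 539 ± 42.5 CPM (SD, n = 5) in control, 605 ± 86.6 CPM (SD, n = 5) in ELS, 571 ± 68.0 CPM (SD, n = 5) in ELS-HFD and 494 ± 170 CPM (SD, n = 4) in HFD. Its lowest value was 305 CPM in HFD replicate 1 and its highest 735 CPM in ELS replicate 5. Once TMM scaling was applied, the lowest was 395 CPM in HFD replicate 1 and the highest 720 CPM in HFD replicate 2. Neighbours in the order ELS (9.18 as mean log2 CPM), ELS-HFD (9.14), control (9.06) and HFD (8.98) did not differ beyond their spread (exact permutation p = 0.730, 0.429 and 0.738). Without the 3 libraries that stood apart, ELS-HFD lay 0.20 above control (exact permutation p = 0.0357, unadjusted) in place of 0.079.

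S100b, the calcium-binding protein gene, was at 1003, 916, 1048, 994 and 1057 CPM in control replicates 1 to 5 and at 941, 1104, 1051, 940 and 1060 CPM in the ELS replicates. It was at 1475, 1080, 1162 and 903 CPM in the HFD replicates and at 1288, 1291, 1385, 987 and 1203 CPM in the ELS-HFD replicates. In the ELS-HFD group 4 of 5 libraries lay above every control and every ELS library, and replicate 4 lay among them. How many of all tested IDs have 4 of 5 libraries beyond another group was not counted. The highest value of all, in HFD replicate 1, was 1911 CPM once TMM scaling was applied. Mean CPM was 1231 ± 151 (SD, n = 5) in ELS-HFD, 1155 ± 239 (SD, n = 4) in HFD, 1019 ± 74.8 (SD, n = 5) in ELS and 1004 ± 55.9 (SD, n = 5) in control. In log2 CPM the order was HFD (10.25), ELS-HFD (10.24), control (9.96) and ELS (9.94). HFD and ELS-HFD did not differ beyond their spread (exact permutation p = 1), nor did control and ELS (exact permutation p = 0.833). ELS-HFD was 0.29 above control (exact permutation p = 0.0317) and 0.31 above ELS (exact permutation p = 0.0397), 2 of the 36 tests of the 6 genes in the 6 pairs of groups, unadjusted. Without ELS-HFD replicates 2 and 3 these differences were 0.19 and 0.21 (exact permutation p = 0.125 and 0.143). The first p was 0.0556 without control replicate 1, 2 or 4. The second was 0.0556 to 0.0635 without ELS replicate 1, 4 or 5 and without ELS-HFD replicate 1, 2, 3 or 5. The share of all tested IDs under 0.05 in these exact tests was not computed.

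The transporter gene Slc1a2 showed the widest contrasts of the set. It was at 292, 330, 400, 317 and 321 CPM in ELS replicates 1 to 5 and at 252, 334, 187, 236 and 149 CPM in the control replicates. In the HFD replicates it was at 45.0, 344, 186 and 171 CPM, and in the ELS-HFD replicates at 120, 57.6, 68.8, 294 and 154 CPM. The ELS daughters were all high and close together, the ELS-HFD daughters were low except for replicate 4, and the HFD group held 1 very low and 1 high library. All pairs of groups overlapped in log2 CPM, as they did for the other 5 genes. Among all tested IDs the groups did not overlap for 2.22% in HFD against control, 3.38% in ELS against control, 1.09% in ELS-HFD against control, 5.22% in ELS against HFD, 0.436% in ELS-HFD against HFD and 6.95% in ELS-HFD against ELS. For Slc1a2, 4 of the 5 ELS-HFD libraries lay below every ELS library, a pattern for which no share of all tested IDs was counted. The 3 lowest libraries, HFD replicate 1 and ELS-HFD replicates 2 and 3, were the 3 that stood apart in the whole profile.

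Mean CPM of Slc1a2 was 332 ± 40.5 (SD, n = 5) in ELS, 231 ± 70.1 (SD, n = 5) in control, 187 ± 123 (SD, n = 4) in HFD and 139 ± 95.0 (SD, n = 5) in ELS-HFD. The order by mean log2 CPM was the same, at 8.32, 7.79, 7.32 and 6.86. ELS lay above its neighbour control by 0.53 (exact permutation p = 0.0317), while control and HFD (exact permutation p = 0.437) and HFD and ELS-HFD (exact permutation p = 0.468) did not differ beyond their spread. ELS-HFD minus ELS was -1.46 (exact permutation p = 0.0159) and ELS lay 1.00 above HFD (exact permutation p = 0.0397). With ELS against control these are 3 of the 5 unadjusted p under 0.05 among the 36. The share of all tested IDs under 0.05 in this exact test was not computed, so the 5 cannot be set against a background. In edgeR, unadjusted p under 0.05 was reached by 19.8% of all tested IDs in ELS-HFD minus ELS and by 4.35% in ELS minus control. Without the 3 libraries that stood apart, ELS-HFD minus ELS was -0.88 (exact permutation p = 0.0357) and ELS lay 0.51 above HFD (exact permutation p = 0.107). The difference of ELS from control was 0.38 to 0.55 with an exact permutation p of 0.0556 to 0.0714 when control replicate 5 or ELS replicate 2, 3, 4 or 5 was left out. That of ELS from HFD had an exact permutation p of 0.0893 to 0.143 without any 1 of the ELS libraries or without HFD replicate 1, 3 or 4.

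Slc1a3, the related transporter gene, stayed within 653 to 746 CPM in control, 640 to 729 in ELS, 554 to 692 in ELS-HFD and 460 to 677 in HFD; the limits of the last 2 groups were set by ELS-HFD replicate 3 and HFD replicate 1 at the low end. Means were 685 ± 37.8 (SD, n = 5), 674 ± 32.9 (SD, n = 5), 625 ± 60.9 (SD, n = 5) and 581 ± 94.8 CPM (SD, n = 4), in that order. Once TMM scaling was applied, HFD replicate 1 was at 596 CPM and the lowest library was HFD replicate 4, at 546 CPM. In log2 CPM the groups ran control (9.41), ELS (9.34), ELS-HFD (9.27) and HFD (9.27), and neighbours did not differ beyond their spread (exact permutation p = 0.278, 0.397 and 0.960). Against control, HFD differed by -0.14 in log2 CPM (exact permutation p = 0.0794) and by -0.25 when CPM of column sums was used (exact permutation p = 0.0317).

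Glul, which makes glutamine from the glutamate taken up, lay between 922 CPM in HFD replicate 1 and 1404 CPM in ELS-HFD replicate 4. Once TMM scaling was applied, HFD replicate 1 was at 1194 CPM and the lowest library was ELS-HFD replicate 2, at 996 CPM. Its group means were 1186 ± 80.5 CPM (SD, n = 5) in control, 1210 ± 105 CPM (SD, n = 5) in ELS, 1188 ± 181 CPM (SD, n = 5) in ELS-HFD and 1122 ± 173 CPM (SD, n = 4) in HFD. Mean log2 CPM was 10.19 to 10.22 in the 4 groups, and no neighbours differed beyond their spread (exact permutation p = 0.841, 0.952 and 0.976).

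A ratio of counts within a library needs no library scaling. The log2 ratio of Slc1a2 to Slc1a3 lay between -1.13 and -0.86 in the 5 ELS libraries, between -2.14 and -1.16 in the controls, between -3.36 and -0.98 in HFD and between -3.33 and -1.24 in ELS-HFD. All 5 ELS libraries were thus above all 5 controls and above all 5 ELS-HFD libraries, while HFD overlapped every group. The same ratio to Slc1a3 was higher without overlap in ELS than in control for 3.25% of the other tested IDs, and lower without overlap in ELS-HFD than in ELS for 3.19%. With S100b in place of Slc1a3, ELS and control did overlap. The log2 ratio of Slc1a2 to S100b was -1.74 to -1.39 in ELS, -2.83 to -1.46 in control and -4.49 to -1.75 in ELS-HFD. The ratio of Glul to Slc1a3 had a range of 0.69 to 1.04 over all 19 libraries, the 3 that stood apart included. That of Aqp4 to Slc1a3 was -0.21 to 0.045 in ELS-HFD and -0.39 to -0.28 in control, which do not overlap either; 1.06% of the other tested IDs were higher without overlap in that comparison. These ratios were chosen after the values had been seen and are given without a test.

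**Figure D2:**
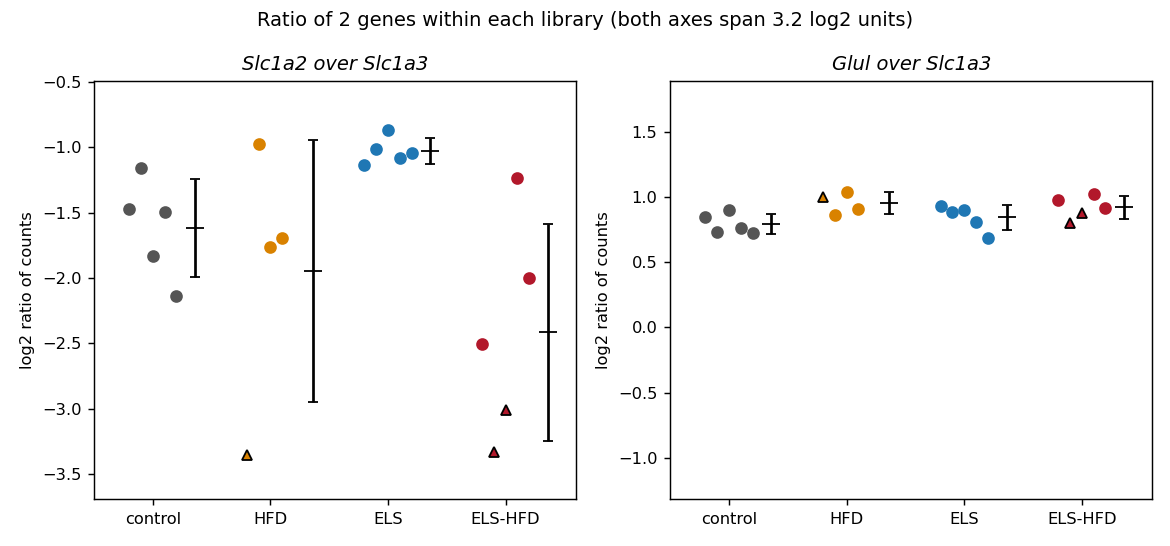
Log2 ratio of the counts of Slc1a2 to Slc1a3 (left) and of Glul to Slc1a3 (right) in each library, by paternal group, with mean ± SD; black-edged triangles are HFD replicate 1 and ELS-HFD replicates 2 and 3, and both axes span 3.2 log2 units. The left ratio runs from -3.36 to -0.86 and the right one from 0.69 to 1.04.

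Paternal HFD against control addresses the father's diet on its own. None of the 6 genes passed an adjusted p of 0.05 in edgeR's quasi-likelihood test, where 0% of 15372 IDs did. The largest changes were in S100b, with a log2 fold change of 0.35 ± 0.16 (SE, edgeR, adjusted p = 0.616), and Slc1a2, with -0.26 ± 0.43 (SE, edgeR, adjusted p = 0.849). S100b was the only member at an unadjusted p under 0.05, a level reached by 7.79% of all tested IDs. Both values rested on HFD replicate 1: without it they were 0.082 and 0.043. Slc1a2 was also at -0.72 without HFD replicate 2 and at -0.098 without control replicate 2. The median log2 fold change was -0.09 over the 6 genes, 4 of them lower, and 0.0061 over all tested IDs.

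Paternal ELS against control addresses his early stress on its own. No member was called, with 0% of all IDs called, and none had an unadjusted p under 0.05, against 4.35% of IDs. Slc1a2 was 1.40-fold the control level in the edgeR fit, a log2 fold change of 0.49 ± 0.40 (SE, edgeR, adjusted p = 0.913), and the other 5 genes lay between -0.062 and 0.13. The edgeR fit draws its estimate of spread for Slc1a2 from all 19 libraries, including the dispersed HFD and ELS-HFD groups. In a fit to ELS and control alone the same difference had an unadjusted p of 0.0148 in edgeR and an adjusted p of 0.224; 15.8% of IDs were under an unadjusted p of 0.05 in that fit. The median was 0.02 over the 6 genes and -0.0022 over all IDs.

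ELS-HFD against control compares fathers with both exposures with fathers with none. Slc1a2 was at 0.603 of the control level, a log2 fold change of -0.73 ± 0.40 (SE, edgeR, adjusted p = 0.839), and S100b at 1.23-fold, or 0.29 ± 0.15 (SE, edgeR, adjusted p = 0.839). Gfap was at 0.20 ± 0.20, Aqp4 at 0.084 ± 0.14, Slc1a3 at -0.13 ± 0.087 and Glul at 0.0040 ± 0.11 (log2 fold changes with SE). No member and 0% of IDs were called, and no member had an unadjusted p under 0.05, against 4.18% of IDs. Slc1a2 was at -1.22 without ELS-HFD replicate 4, the library of that group with the high value, and at -0.29 (edgeR, adjusted p = 0.973) without the 3 libraries that stood apart. In log2 CPM the difference was -0.93 (exact permutation p = 0.0794) with these libraries and -0.35 (exact permutation p = 0.357) without them.

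ELS-HFD against ELS addresses the diet where every father was stressed, and it held the largest difference of the set. Slc1a2 in ELS-HFD was at 0.430 of its ELS level, a log2 fold change of -1.22 ± 0.41 (SE, edgeR, adjusted p = 0.215), and S100b was at 1.24-fold, or 0.31 ± 0.15 (SE, edgeR, adjusted p = 0.258). Slc1a2 was the only member at an unadjusted p under 0.05, where 19.8% of all tested IDs were. The other 4 genes lay between -0.069 and 0.16. No member and 0% of IDs were called. When HFD replicate 1, which is in neither group but shares the estimate of spread, was left out, edgeR called 15.5% of IDs, and 2 of the 6 genes with them. S100b was then higher at 0.33 (edgeR, adjusted p = 0.0398), as were 7.55% of IDs, and Slc1a2 lower at -1.21 (edgeR, adjusted p = 0.0272), as were 7.92% of IDs. Without all 3 libraries that stood apart Slc1a2 was at -0.78 (edgeR, adjusted p = 0.189) and S100b at 0.21 (edgeR, adjusted p = 0.304). Over all alternatives the adjusted p ran from 0.0272 to 0.417 for Slc1a2 and from 0.0398 to 0.469 for S100b.

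ELS-HFD against HFD addresses the stress where every father had the diet. Slc1a2 differed by -0.47 ± 0.42 (SE, edgeR, adjusted p = 1.00) and Gfap by 0.37 ± 0.21 (SE, edgeR, adjusted p = 1.00), and the latter was 0.12 without ELS-HFD replicate 5, whose Gfap was the highest of all libraries. Slc1a2 was at -0.0072 without HFD replicate 2, at -0.28 and -0.30 without ELS-HFD replicate 2 or 3, at -0.76 without HFD replicate 1 and at -0.96 without ELS-HFD replicate 4. The other 4 genes lay between -0.056 and 0.12. No member and 0% of IDs were called, and no member had an unadjusted p under 0.05, against 3.38% of IDs.

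**Figure D3:**
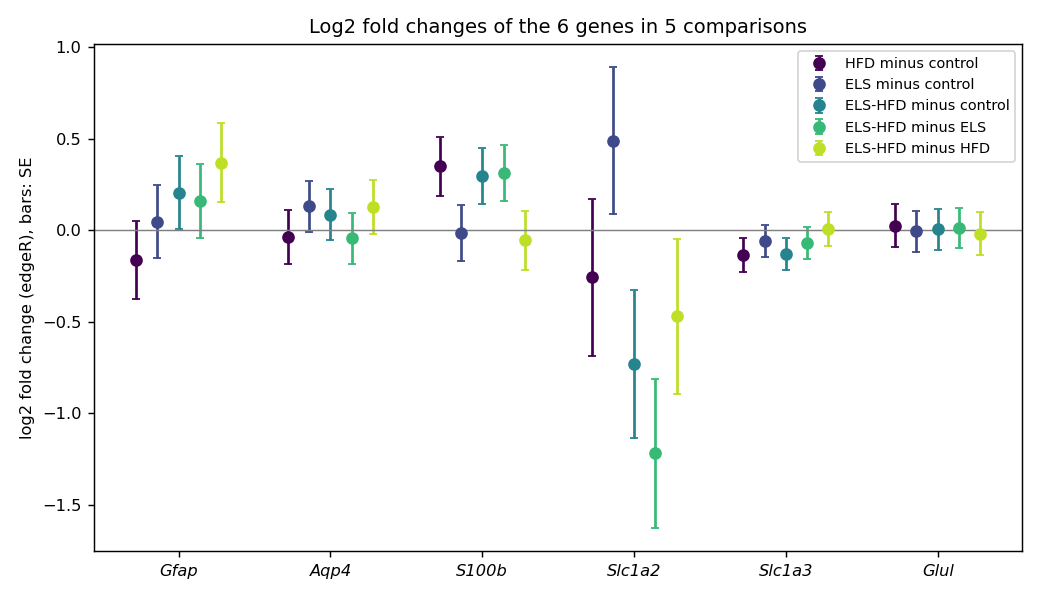
Log2 fold changes (vertical axis) of the 6 genes (horizontal axis) in 5 comparisons of paternal groups, from the edgeR fit to all 19 libraries; bars are 1 SE. Slc1a2 has the widest range, from -1.22 (ELS-HFD minus ELS) to 0.49 (ELS minus control), and Glul stays within 0.024 of 0.

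Averaged over early life, the 9 daughters of fathers on the diet had Slc1a2 at 0.599 of the level in the other 10 daughters, a log2 fold change of -0.74 ± 0.30 (SE, edgeR, adjusted p = 0.164), and S100b at 1.26-fold, or 0.33 ± 0.11 (SE, edgeR, adjusted p = 0.147). These were the 2 members at an unadjusted p under 0.05, which 24.3% of all IDs reached, so that 2 of 6 is near the background, and 0% of IDs were called. DESeq2 called 282 of 11332 IDs in this contrast and 140 of 15294 in ELS-HFD minus ELS, no member among them. At shares this small the absence of a member says nothing about the set. In the other contrasts DESeq2 called at most 4 IDs. Without HFD replicate 1 S100b was at 0.21 (edgeR, adjusted p = 0.236). Without the 3 libraries that stood apart Slc1a2 was at -0.37 (edgeR, adjusted p = 0.551) and S100b at 0.15 (edgeR, adjusted p = 0.518). Slc1a3 was at -0.10 ± 0.063 and Gfap, Aqp4 and Glul lay between -0.042 and 0.018. Averaged over diet, paternal ELS gave 0% of IDs called and no member at an unadjusted p under 0.05 (2.49% of IDs); Gfap had the largest value, 0.21 ± 0.15 (SE, edgeR, adjusted p = 0.995), which was 0.085 without ELS-HFD replicate 5, and Slc1a2 was at 0.0085 ± 0.29.

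The interaction asks whether the difference with the father's diet depends on his early life. For Slc1a2 the diet difference was -0.26 without and -1.22 with paternal ELS, and they differed by -0.96 ± 0.58 (SE, edgeR, adjusted p = 1.00), so the dependence was within the spread. It was -1.45 without ELS-HFD replicate 4 and -0.49 without HFD replicate 2. For S100b the diet differences were 0.35 and 0.31, with an interaction of -0.038 ± 0.22 (SE, edgeR, adjusted p = 1.00). Without HFD replicate 1 they were 0.082 and 0.33, with an interaction of 0.25 (edgeR, adjusted p = 0.371). No member and 0% of IDs were called in the interaction of all 19 libraries, and no member had an unadjusted p under 0.05, against 5.13% of IDs.

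Across the libraries the genes were also compared with the first principal component, over the 16 libraries other than the 3 that stood apart, since these lie far out on it. For Slc1a2 the relation had r = -0.89 (permutation p = 3.0e-05, adjusted p = 0.00018 over 6 relations) and rho = -0.80 (permutation p = 0.00042, adjusted p = 0.00252). S100b ran the other way, with r = 0.71 (permutation p = 0.00197, adjusted p = 0.00591) and rho = 0.59 (permutation p = 0.0169, adjusted p = 0.0508). Without the 2 libraries farthest from the median, ELS-HFD replicate 1 and control replicate 5, the r values were -0.82 and 0.60. Of the other tested IDs 1.13% had an r at least as far from 0 as that of Slc1a2, and 11.6% as that of S100b. For Gfap, Aqp4, Slc1a3 and Glul r lay between -0.12 and 0.18 (smallest permutation p = 0.523). The component is made from all tested IDs, these 6 among them, and from all 19 libraries. Leaving the 3 libraries out of r therefore does not take them out of the component. The permutations moved libraries freely between the paternal groups, with group means left in, so these p-values also take in differences between groups. These relations were chosen after the values had been seen, and the part of this axis in the group differences was not tested.

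**Figure D4:**
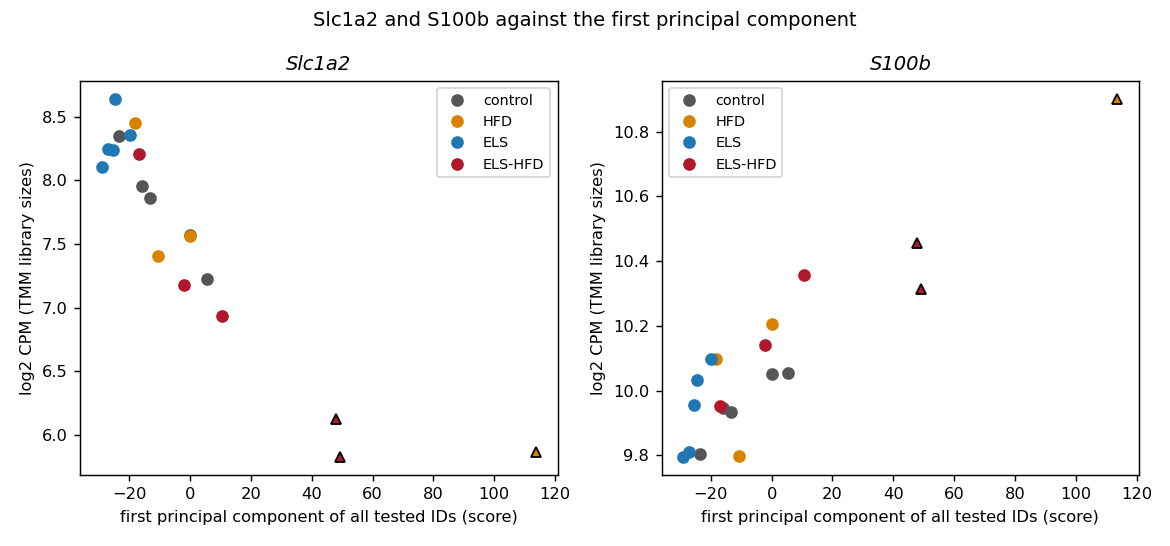
Log2 CPM (vertical axes) of Slc1a2 (left) and S100b (right) against the score of each library on the first principal component of all tested IDs (horizontal axes), coloured by paternal group; black-edged triangles are HFD replicate 1 and ELS-HFD replicates 2 and 3. Over the other 16 libraries r is -0.89 for Slc1a2 and 0.71 for S100b.

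Of the 15 pairs of members over the same 16 libraries, 1 passed after adjustment. Slc1a3 and Glul, whose products take up glutamate and convert it, varied together with r = 0.71 (permutation p = 0.00163, adjusted p = 0.0244 over 15 pairs) and rho = 0.70 (permutation p = 0.00332, adjusted p = 0.0498). With group means removed r was 0.85 (permutation p within groups = 0.00321, adjusted p = 0.0481), and without ELS-HFD replicate 5 and HFD replicate 4 it was 0.62. The share of all pairs of tested IDs with an r this far from 0 was not computed. The pair of transporter genes, Slc1a2 and Slc1a3, had r = 0.41 (permutation p = 0.112, adjusted p = 0.186) and rho = 0.44 (permutation p = 0.0943, adjusted p = 0.278), and 0.51 without ELS-HFD replicates 1 and 5. With group means removed its r was 0.63 (permutation p within groups = 0.0548, adjusted p = 0.197). Gfap had negative values with Slc1a2, Slc1a3 and Glul. The largest was with Slc1a3, at r = -0.52 (permutation p = 0.0396, adjusted p = 0.170) and rho = -0.45 (permutation p = 0.0842, adjusted p = 0.278). Without ELS-HFD replicates 4 and 5 the r of Gfap was -0.31 with Slc1a3, -0.21 with Slc1a2 and -0.26 with Glul. With group means removed over the 16 libraries it was -0.71 with Slc1a3 (permutation p within groups = 0.00706, adjusted p = 0.0529). With Slc1a2 and with Glul it was -0.57 in that setting. The points share library scaling, so part of any common variation can come from it.

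**Figure D5:**
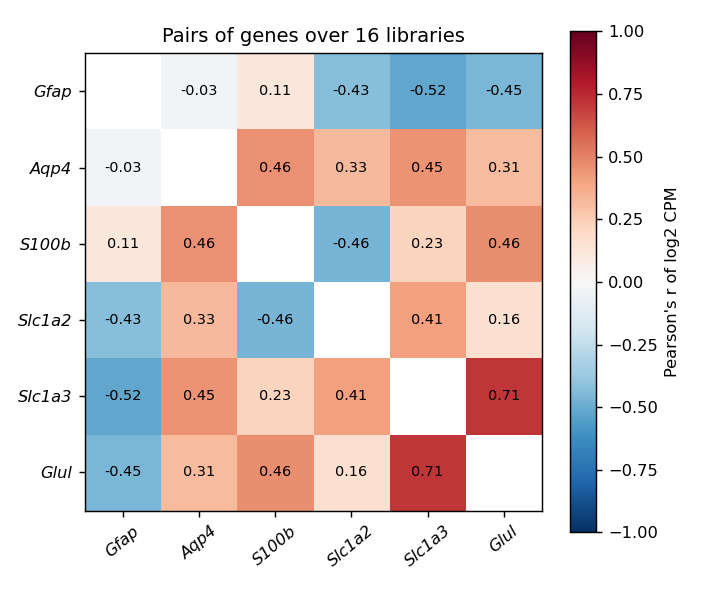
Pearson's r of log2 CPM (colour and numbers) for each pair of the 6 genes (both axes) over 16 libraries. Slc1a3 with Glul has the highest value, 0.71, and Gfap with Slc1a3 the lowest, -0.52.

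How much of the rest of the transcriptome moved with each gene differed as widely. Over the 16 libraries 421 of 15366 other tested IDs (2.74%) had r over 0.8 with Slc1a2 and 87 (0.566%) with S100b, against 32 for Gfap, 14 for Slc1a3, 2 for Glul and 0 for Aqp4. In the other direction, r was under -0.8 for 58 IDs with Slc1a2, 123 with S100b, 28 with Gfap, 8 with Aqp4, 6 with Slc1a3 and 5 with Glul. Over all 19 libraries, the 3 that stood apart included, 1674 IDs (10.9%) were over 0.8 with Slc1a2 and 1308 (8.51%) with S100b. The counts were 17 with Slc1a3, 13 with Gfap, 3 with Aqp4 and 0 with Glul. Under -0.8 were 681 with Slc1a2 and 1594 with S100b. The ID most like the mean of the 6 standardised genes over the 19 libraries was ENSRNOG00000049351 (r = 0.88), at 194 to 345 CPM. Over the 16 libraries it was another ID, ENSRNOG00000050550 (r = 0.90), at 5.03 to 12.1 CPM. The tables used here name neither.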

How the data were processed

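RNA of 19 brain samples was measured by sequencing of polyadenylated RNA, with about 400 ng of RNA per library per the labels' protocols. The authors deposited raw counts per Ensembl gene ID, as the whole-number values show. Rnor_6.0 and DESeq2, without a version, come from the submitters' processing notes. For the aligner, annotation release, strand and multiply matching reads, the method is not given in the sources used here. Every column was matched to a sample by the number in its description.

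The main fit was edgeR 4.0.16 (R 4.3.3): filterByExpr, TMM, quasi-likelihood F test, the 4 groups as the only term in 1 fit of 19 libraries, 8 contrasts, Benjamini-Hochberg over 15372 IDs, called at an adjusted p under 0.05. SE is the log2 fold change divided by the square root of F. Exact permutation tests, two-sided, used log2 CPM with a prior count of 2. Correlations with a p-value used 100000 permutations. As the design foresaw, those between members are given over 16 libraries because 3 lie apart. Those with the first principal component are too. Counts of IDs that moved with each gene, and the ID most like the set, are given over 16 and over 19 libraries.

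The members, lists and tests were chosen with earlier results of these data known. The rule names the 6 members with values in every group and, with no table that pairs symbols with IDs, tests no other list and prints the ID most like the set as a whole, over 19 and over 16 libraries. DESeq2 1.42.0, limma 3.58.1, other scalings, no filter, left-out libraries and a replicate block were tried as alternatives. The edgeR procedure was tested on simulated data.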

Additional observations from a re-analysis of the deposited data

Results flagged for a closer look

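Of the 24 groups of values (6 genes in 4 groups), 1 had an isolated extreme library, against about 1 in 20 by chance. Aqp4 in control replicate 2 was at 9.22 log2 CPM, or 612 CPM, and the other 4 control libraries lay between 507 and 534 CPM. No interaction passed an adjusted p of 0.05 in edgeR.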

How the results depend on the processing

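Of 366 log2 fold changes recomputed under other tools, scalings and filters, 327 kept their direction and their side of the threshold, and 39 changed sign, all from main values of at most 0.26; of 912 with 1 library left out, 821 kept both, 89 changed sign and 2 passed the threshold. The cause of each was not tested. The number of members called stayed at 0 except for ELS-HFD minus ELS, where it ran from 0 to 2 as single libraries were left out. At an unadjusted p under 0.05 the number of IDs in that comparison ran from 1804 to 5137 (3039 in the main fit), and in the averaged diet contrast from 1585 to 4849 (3739).

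With HFD 1 and ELS-HFD 2 and 3 left out, HFD minus control was 0.071 for Aqp4 and 0.042 for Slc1a2, ELS-HFD minus ELS 0.063 for Aqp4 and 0.0099 for Slc1a3, ELS-HFD minus HFD 0.12 for S100b and 0.11 for Glul, averaged HFD 0.067 for Aqp4, averaged ELS 0.051 for S100b, 0.0065 for Slc1a3 and 0.053 for Glul, and the interaction 0.13 for S100b and 0.12 for Glul. With no scaling factors, which moved the median of all IDs by -0.10 in HFD minus control and by 0.11 in ELS-HFD minus HFD and by less elsewhere, HFD minus control was -0.080 for Glul, ELS minus control 0.022 for S100b and 0.030 for Glul, ELS-HFD minus ELS -0.027 for Glul, ELS-HFD minus HFD 0.092 for S100b and 0.083 for Glul, averaged HFD -0.054 for Glul, averaged ELS 0.057 for S100b, 0.042 for Slc1a3 and 0.056 for Glul, and the interaction 0.041 for Aqp4, 0.070 for S100b and 0.053 for Glul. DESeq2 and RLE scaling gave ELS minus control of 8.6e-05 and 0.00047 for Glul and averaged HFD of 0.0048 and 0.0054 for Gfap. limma-voom gave ELS-HFD minus control of -0.0087 for Glul and an interaction of 0.035 for Aqp4 and 0.013 for S100b. With no filter, ELS-HFD minus control was -0.0023 for Glul.

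With the replicate number as a block, HFD minus control was -0.013 and ELS-HFD minus HFD 0.019 for Glul, averaged HFD 0.023 for Gfap, averaged ELS 0.0045 for Glul, and the interaction 0.0029 for Aqp4 and 0.029 for Glul; it changed no call. Of 27 same-numbered pairs of samples, 9 had deviations from the group means that correlated over 0.1. Over all 27 pairs r ran from -0.44 to 0.57. The median r was -0.049, against 0.0042 for pairs with different numbers. Of the 19 samples, 6 correlated best with their own number. The share of pairs with different numbers over 0.1, and the number of samples expected to match by chance, were not computed. Whether samples with the same number share a father, litter or batch cannot be told from these values.

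Leaving out 1 library at a time, the sign turned within these ranges. For Glul they were -0.065 to 0.043 (ELS minus control), -0.061 to 0.069 (ELS-HFD minus ELS), -0.092 to 0.035 (ELS-HFD minus HFD), -0.069 to 0.059 (ELS-HFD minus control), -0.027 to 0.091 (HFD minus control), -0.085 to 0.046 (interaction), -0.050 to 0.014 (averaged ELS) and -0.019 to 0.052 (averaged HFD). For Aqp4 they were -0.11 to 0.021 (ELS-HFD minus ELS), -0.24 to 0.071 (HFD minus control), -0.10 to 0.20 (interaction) and -0.14 to 0.020 (averaged HFD). For Gfap they were -0.039 to 0.13 (ELS minus control), -0.088 to 0.30 (ELS-HFD minus ELS), -0.041 to 0.35 (ELS-HFD minus control) and -0.13 to 0.069 (averaged HFD). For S100b they were -0.058 to 0.018 (ELS minus control), -0.19 to 0.23 (ELS-HFD minus HFD), -0.17 to 0.25 (interaction) and -0.10 to 0.11 (averaged ELS). For Slc1a2 they were -0.72 to 0.043 (HFD minus control) and -0.23 to 0.24 (averaged ELS), and for Slc1a3 -0.047 to 0.063 (ELS-HFD minus HFD).

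The exact permutation differences in log2 CPM, tried under alternatives chosen after the data were seen, ran from 0.23 to 0.36 (S100b, ELS-HFD against control), 0.25 to 0.38 (S100b, ELS-HFD against ELS), 0.38 to 0.66 (Slc1a2, ELS against control) and 0.51 to 1.37 (Slc1a2, ELS against HFD) with 1 library left out. With the 3 libraries left out together they were 0.19, 0.21 and 0.51 for the first 2 and the last, with exact permutation p of 0.125, 0.143 and 0.107. That of Slc1a2 in ELS-HFD against ELS stayed under 0.05 in every such setting.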
